A study of Mus musculus with 11 samples.

Results

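The capillaries of the brain are lined by endothelial cells that are sealed to each other and supplied with dedicated carriers, an arrangement known as the blood-brain barrier. Tight junction strands close the gaps between the cells, and scaffold proteins tie the strands to actin. Solute carriers bring in glucose, amino acids, lipids and hormones, while ATP-driven pumps return drugs and other lipophilic compounds to the blood. The atypical protein kinases C, encoded by Prkci and Prkcz, are background to this set through the PAR polarity complex, which is known to act at tight junctions of epithelia and endothelia.

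Described here are 10 genes of this barrier, chosen by symbol from the 16228 genes of one expression table of mouse cerebral cortex: the junction genes Cldn5, Ocln and Tjp1, the efflux pumps Abcb1a and Abcg2, and the carriers Slc2a1, Mfsd2a, Slco1a4, Slco1c1 and Slc7a5. All 10 were found and all 10 passed the filter on low values. RNA came from a punch of cortex taken at postnatal day 30, with 1 library per animal and 11 libraries in all. The study asked about oligodendrocyte development, and the Cre driver is Ng2-Cre, which is active in oligodendrocyte precursors and, as general knowledge of the driver has it, in pericytes. The Prkci cKO group held 4 mice labelled Ng2 Cre+ Prkci f/f, and the Prkcz cKO group held 3 mice labelled Ng2-Cre+ Prkcz f/f. The Control group held 4 mice, of which Controls 1 and 2 are labelled Pkcz f/+ and Controls 3 and 4 Pkcz f/f. These labels name no Cre, so by label Cre and deletion cannot be told apart where either knockout is compared with Control. No control of the Prkci line is among them, so line and deletion cannot be told apart where Prkci cKO is compared. Strain and sex are not in the labels used here.

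Values are the authors' normalised expression signal, a level scaled for library size. Estimated depth was 14740000 reads for Prkcz cKO 3 and 20620000 to 28170000 reads for the other libraries. The deleted genes were checked first. Prkci was 87.8 ± 2.52 (SD, n = 4) in Control and 67.0 ± 1.47 (SD, n = 4) in Prkci cKO, and fell by 23.7%, with a limma adjusted p of 0.000984. Prkcz was 322.9 ± 20.2 (SD, n = 4) in Control and 277.8 ± 15.1 (SD, n = 3) in Prkcz cKO, 13.9% less, with no overlap between the libraries and a limma adjusted p of 0.0966. Endothelial transcripts were present in every library: each of 22 pan-endothelial marker genes was above 0 throughout, with a lowest value of 1.10 for Icam2.

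The promoters of 4 genes are shown because the results below turn on these genes: Cldn5, Abcb1a and Slco1a4 varied together most closely of the 10 across the libraries, and Ocln differed little between the groups. Each line gives the 250 bases before a RefSeq transcription start on GRCm38.p6, 5′ to 3′ in the direction of transcription. Capitals mark matches, on either strand, to short motifs that were searched.
Cldn5 promoter: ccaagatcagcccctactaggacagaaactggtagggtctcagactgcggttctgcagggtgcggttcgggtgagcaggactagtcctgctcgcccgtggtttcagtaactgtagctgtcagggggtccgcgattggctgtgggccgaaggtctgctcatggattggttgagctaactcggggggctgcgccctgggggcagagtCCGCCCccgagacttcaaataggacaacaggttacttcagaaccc
Abcb1a promoter: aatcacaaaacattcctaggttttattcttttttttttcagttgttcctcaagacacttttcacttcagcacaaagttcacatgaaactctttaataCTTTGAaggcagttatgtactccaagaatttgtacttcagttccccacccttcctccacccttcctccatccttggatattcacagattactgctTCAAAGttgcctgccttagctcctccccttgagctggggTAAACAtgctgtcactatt
Slco1a4 promoter: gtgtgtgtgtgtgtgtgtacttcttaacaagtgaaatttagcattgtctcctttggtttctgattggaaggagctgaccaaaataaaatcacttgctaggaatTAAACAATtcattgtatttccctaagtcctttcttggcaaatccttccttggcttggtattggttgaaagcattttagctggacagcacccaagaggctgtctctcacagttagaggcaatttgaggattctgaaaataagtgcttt
Ocln promoter: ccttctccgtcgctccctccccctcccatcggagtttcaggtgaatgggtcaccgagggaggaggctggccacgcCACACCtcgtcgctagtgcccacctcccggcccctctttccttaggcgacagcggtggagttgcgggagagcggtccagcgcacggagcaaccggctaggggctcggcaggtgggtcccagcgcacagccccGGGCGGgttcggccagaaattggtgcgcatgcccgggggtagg

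The Cldn5 window is chr16:18776597-18776846 on the plus strand, directly upstream of the single-exon gene. It held 12 CpG dinucleotides, 59.6% G or C, and 1 match to the SP1 motif GGGCGG, found as CCGCCC. The Abcb1a window is chr5:8566841-8567090 on the plus strand, well upstream of the start of the gene at 8660077 in the GENCODE M21 annotation, so the RefSeq start shown is a distal one. It held no CpG, 40.4% G or C, a pair of matches to the TCF/LEF motif CTTTGA, which is the letter core read by the transcription factors of canonical Wnt signalling, and 1 match to the FOX motif TGTTTA. The Slco1a4 window is chr6:141856221-141856470 on the minus strand. It too held no CpG, with 39.2% G or C, and its capitals join a FOX match and a SOX match (AACAAT) that overlap. The Ocln window is chr13:100552499-100552748 on the minus strand, the first by coordinate of 2 starts listed. It held 22 CpG dinucleotides, 69.2% G or C, 1 match to the KLF motif CACACC and 1 to the SP1 motif. Most of it lies inside the gene of the GENCODE M21 annotation, which reaches to 100552718. The window of the other start, chr13:100552719-100552968, lies directly upstream of that gene and held 14 CpG dinucleotides and 64% G or C.

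Of the 10 genes, 9 had such a window in the table used, and Slco1c1 was the other gene with no CpG in its window, at 42.8% G or C. Over all 32841 windows the median was 6 CpG dinucleotides and 52.4% G or C. In the same windows, either strand counted, a TCF/LEF match occurred in 13.8%, a SOX match in 9.43%, a FOX match in 12% (the SOX and FOX letters can overlap), a KLF match in 16.3% and an SP1 match in 32.7%. Letter matches describe the sequence alone and are neither binding sites nor causes. The pair of genes with the largest differences between the knockouts, Abcb1a and Cldn5, had 0 and 12 CpG dinucleotides.

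In the Control cortex the set spanned a wide range of levels. Per kilobase of the longest annotated transcript, the order of mean control levels was Slco1c1 at 22.3 ± 2.3, Cldn5 at 20.5 ± 1.1, Slc7a5 at 17.5 ± 0.85, Tjp1 at 17.4 ± 0.85, Slc2a1 at 17.2 ± 1.1 and Slco1a4 at 11.9 ± 1.1 (each SD, n = 4). Below them came Mfsd2a at 9.03 ± 0.99, Abcb1a at 5.67 ± 0.47, Abcg2 at 3.16 ± 0.12 and Ocln at 2.13 ± 0.31 (each SD, n = 4). Slco1c1 and Cldn5 lay within their spread of each other, and so did Slc7a5, Tjp1 and Slc2a1, while each later step was larger than the SDs of its neighbours. The order depends on the length used: over the union of exons Cldn5 came first at 20.5 and Slco1c1 stood at rank 5 with 13.6, and Mfsd2a at 8.63 lay above Slco1a4 at 7.07. Tjp1, Slc7a5 and Slc2a1 are also made by other cells of cortex, so their levels are not those of endothelium alone.

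**Figure D1:**
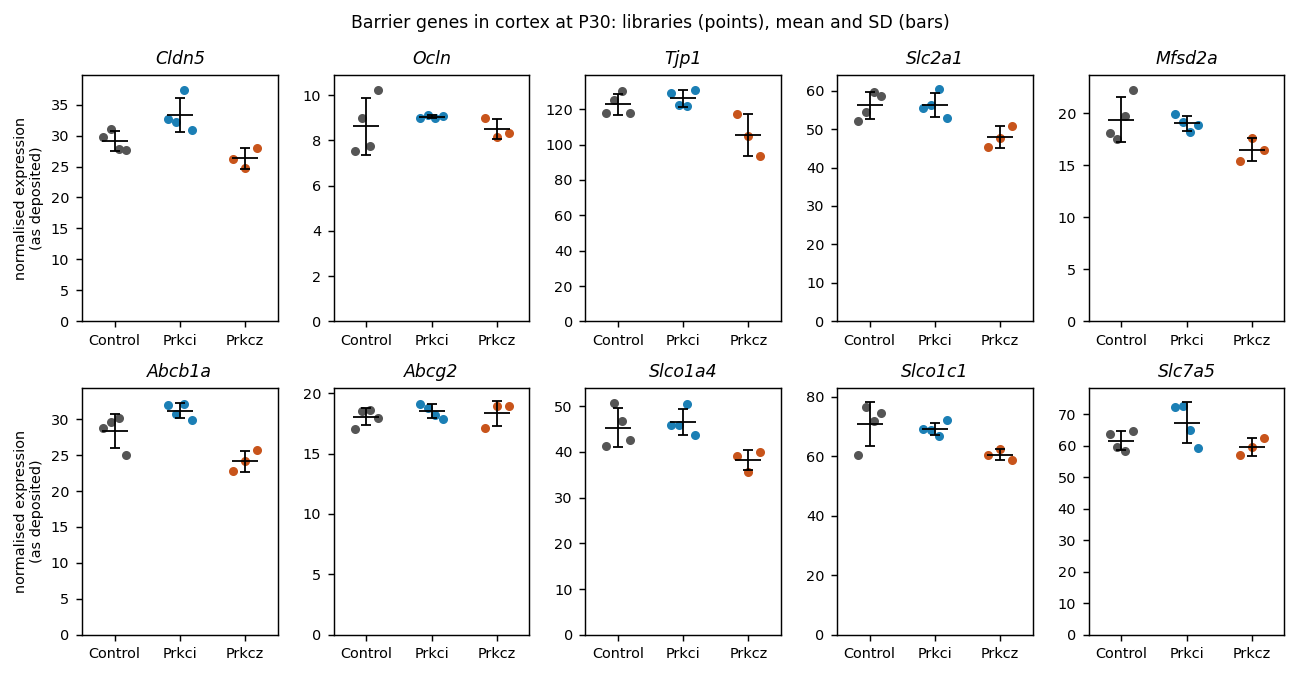
Normalised expression, as deposited (vertical axes, each from 0), of the 10 barrier genes in each library, by group: grey Control (n = 4), blue Prkci cKO (n = 4), orange Prkcz cKO (n = 3); bars are mean and SD. The Prkcz cKO libraries of Tjp1, Slc2a1 and Slco1a4 lie below every Control library, and the Prkci cKO libraries overlap Control for all 10 genes.

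Against Control, the 10 barrier genes of Prkci cKO cortex had log2 differences of -0.03 (Slco1c1) to 0.19 (Cldn5). None passed the test at an adjusted p of 0.05 in limma's moderated test over 14330 genes, where 1.61% of all genes passed (230, of which 216 were lower). At an unadjusted p under 0.05 there was 1 of the 10 (Cldn5), against 12.1% of all genes. The median log2 difference of the 10 was 0.04, beside 0.0021 over all genes, and no gene had groups that did not overlap, beside 8.49% of all genes. In Prkcz cKO cortex 6 of the 10 (Tjp1, Slc2a1, Mfsd2a, Abcb1a, Slco1a4 and Slco1c1) had means that differed from the control mean by -14.2% (Tjp1) to -15.6% (Slco1a4). Again none passed the test, beside 0.649% of all genes (93, of which 89 were lower). An unadjusted p under 0.05 was reached by 6 of 10 (all lower, beside 15% of all genes), and their adjusted p-values were 0.135 to 0.235. The median log2 difference was -0.22, beside -0.0061 over all genes. Below 0 were 9 of the 10, beside 51.8% of all genes. It was 8 when libraries were rescaled to equal sums or quantile normalised, with a replicate block, and without Control 2 or Control 4. Without Control 1 it was 10. Every Prkcz cKO library was below every control for 3 of the 10 genes (Tjp1, Slc2a1 and Slco1a4), where 6.72% of all genes showed this. Without Prkcz cKO 3, the shallowest library, the count at an unadjusted p under 0.05 was 7 and the median -0.19. That count was 5 without Control 4, without Prkcz cKO 1 and with f/f controls only.

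Both comparisons use the same 4 control libraries. The knockouts were therefore also compared with each other, a difference that uses no control value, though the controls enter the estimate of error. The Prkci cKO mean was above the Prkcz cKO mean for all 10 genes. It was above for 9 when libraries were rescaled to equal sums, without Prkci cKO 1, and without Prkcz cKO 1. Over all genes, 51.5% had a log2 difference below 0 in that comparison. The median log2 difference of the 10 was 0.21, beside -0.0054 over all genes. None passed at an adjusted p of 0.05, beside 0.300% of all genes (43, of which 34 were higher in Prkci cKO), and the lowest adjusted p was 0.0521, for Abcb1a. An unadjusted p under 0.05 was reached by 8 of 10 (beside 16.0% of all genes), and 7 had groups that did not overlap, all with Prkci cKO above (beside 7.36% of all genes in that direction). Leaving out Prkci cKO 1, Prkci cKO 2, Prkcz cKO 1 or Prkcz cKO 3 lowered the count at an unadjusted p under 0.05 to 6.

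**Figure D2:**
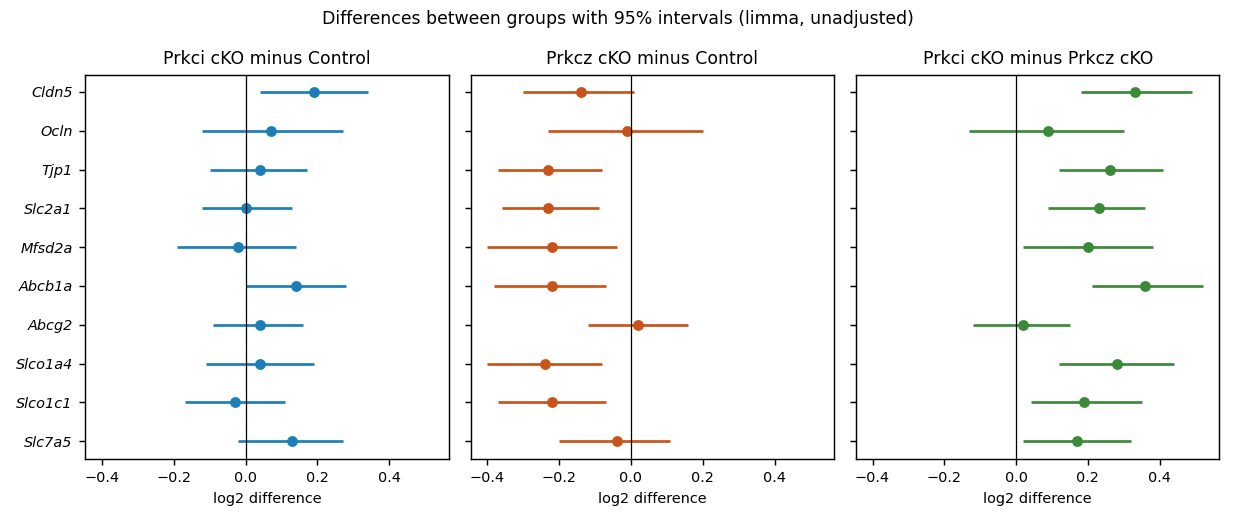
Log2 difference (horizontal axes) of each barrier gene in the 3 comparisons, from limma over all genes; points are estimates and bars 95% intervals, not adjusted for the number of genes. For Prkcz cKO minus Control, 6 intervals lie below 0, and for Prkci cKO minus Prkcz cKO, 8 lie above 0.

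Of the junction genes, Cldn5 (chr16:18776847-18778262, plus strand, GRCm38) encodes claudin-5, the main strand protein that seals brain endothelium. Its level was 29.8, 31.1, 27.8 and 27.7 in Controls 1 to 4, 32.6, 32.3, 37.3 and 31.0 in Prkci cKO 1 to 4, and 26.2, 24.7 and 28.0 in Prkcz cKO 1 to 3. Of the 4 Prkci cKO libraries 3 were above every control, with Prkci cKO 3 highest, and the lowest fell just under Control 2; the Prkcz cKO libraries reached into the low end of the controls. The log2 difference from Control was 0.19 ± 0.0676 (SE) in Prkci cKO, with a limma adjusted p of 0.249, and -0.14 ± 0.0730 in Prkcz cKO, with an adjusted p of 0.379. Both depend on the control genotype, as Controls 1 and 2 (f/+) were above Controls 3 and 4 (f/f). With f/f controls only, the Prkci cKO difference was 0.25 (limma adjusted p = 0.177). Over the alternatives other than leaving out 1 library, the Prkcz cKO difference was -0.18 to -0.08. Between the knockouts, whose libraries did not overlap, Cldn5 differed by 26.6% of the means (log2 0.33 ± 0.0730, SE; limma adjusted p = 0.0737).

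Tjp1 (chr7:65296165-65527781, minus strand) encodes ZO-1, the scaffold under the strands. It was 118, 125, 130 and 118 in Controls 1 to 4 and 129, 122, 122 and 131 in Prkci cKO 1 to 4, so these groups overlapped. In Prkcz cKO 1 to 3 it was 117, 105 and 93.6, the first just under the lowest control and the third, from the shallowest library, well under it. The log2 difference of Prkcz cKO from Control was -0.23 ± 0.0680 (SE, limma adjusted p = 0.154), and that of Prkci cKO was 0.04 (adjusted p = 0.870). Without Prkcz cKO 3 the Prkcz cKO difference was -0.14 (limma adjusted p = 0.511), and leaving out 1 library gave -0.31 to -0.14. Between the knockouts it was 0.26 ± 0.0680 (SE, limma adjusted p = 0.134), with 0.34 (adjusted p = 0.0361) without Prkcz cKO 1 and 0.18 (adjusted p = 0.467) without Prkcz cKO 3.

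Ocln (chr13:100496507-100552718, minus strand) encodes occludin, a strand protein that tunes the junction. It was 7.53, 9.01, 7.74 and 10.3 in the controls, 8.98, 9.11, 9.01 and 9.09 in Prkci cKO and 8.99, 8.17 and 8.33 in Prkcz cKO, each in replicate order. All knockout libraries lay inside the range of the controls. Ocln had the fewest reads of the set, about 122 in Prkcz cKO 3, and the 4 Prkci cKO libraries agreed more closely (CV 0.69%) than counting error alone would give (6.25% or more), so their small spread is no measure of precision. The 95% interval of the log2 difference ran from -0.12 to 0.27 for Prkci cKO against Control and from -0.23 to 0.20 for Prkcz cKO.

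The pumps differed in pattern. Abcb1a (chr5:8660077-8748575, plus strand) encodes P-glycoprotein of the brain capillary, which expels a broad range of drugs. It was 28.7, 29.6, 30.2 and 25.0 in Controls 1 to 4, 31.9, 30.8, 32.2 and 29.9 in Prkci cKO 1 to 4, and 22.7, 24.1 and 25.7 in Prkcz cKO 1 to 3. All 4 Prkci cKO libraries were above the control mean of 28.4 and all 3 Prkcz cKO libraries below it; only Control 4 lay among the Prkcz cKO libraries. The log2 difference from Control was 0.14 in Prkci cKO (limma adjusted p = 0.428; 0.08 with an adjusted p of 0.748 without Control 4) and -0.22 ± 0.0709 in Prkcz cKO (SE, adjusted p = 0.172). The difference between the knockouts was the largest of the set, 29.1% of the means, with a log2 value of 0.36 ± 0.0709 (SE, limma adjusted p = 0.0521) and a 95% interval of 0.21 to 0.52. That adjusted p fell on either side of 0.05 with the processing, from 0.0170 to 0.149 over 24 alternatives, and was 0.0263 without Control 4. Reads of Abcb1a can be shared with its near copy Abcb1b, which was at 2.10 in Control, 2.55 in Prkci cKO and 2.77 in Prkcz cKO (means) and passed the test in no comparison; its exons also overlap a gene model on the other strand, and the sources used here do not say whether counting used strand.

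Abcg2 (chr6:58584523-58695676, plus strand) encodes the breast cancer resistance protein, the second major pump of the barrier. It was 17.1, 18.6, 18.6 and 17.98 in Controls 1 to 4, 19.1, 18.8, 18.2 and 17.9 in Prkci cKO 1 to 4, and 17.1, 18.9 and 18.9 in Prkcz cKO 1 to 3. The 3 groups overlapped throughout. The 95% interval of the log2 difference was -0.09 to 0.16 for Prkci cKO against Control, -0.12 to 0.16 for Prkcz cKO against Control and -0.12 to 0.15 between the knockouts, whose adjusted p in limma was 0.925.

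Slc2a1 (chr4:119108711-119137983, plus strand) encodes GLUT1, which carries glucose into the brain. Its level was 52.2, 54.3, 59.6 and 58.6 in Controls 1 to 4, 55.5, 56.1, 60.3 and 52.9 in Prkci cKO 1 to 4, and 45.3, 47.7 and 50.8 in Prkcz cKO 1 to 3. The Prkcz cKO libraries were below every library of the other groups, by 14.6% of the control mean, which is -0.23 ± 0.0637 on the log2 scale (SE; adjusted p from limma 0.135). Against Control, Prkci cKO differed by 0.11% of the means (limma adjusted p = 0.995). Controls 3 and 4 (f/f) were above Controls 1 and 2 (f/+), and with f/f controls only the Prkci cKO log2 difference was -0.073. Over the alternatives other than leaving out 1 library, the Prkcz cKO difference was -0.30 to -0.20. An antisense gene model overlaps exons of Slc2a1, so reads of the pair may be mixed if counting ignored strand.

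Mfsd2a (chr4:122946850-122961188, minus strand) encodes the carrier of lysophospholipids with docosahexaenoic acid, which is also known for keeping caveolar transport low in brain endothelium. It was 18.1, 17.5, 19.7 and 22.3 in Controls 1 to 4, 20.0, 19.2, 18.2 and 18.9 in Prkci cKO 1 to 4, and 15.4, 17.6 and 16.5 in Prkcz cKO 1 to 3. Prkcz cKO 2 lay just above the lowest control, so these groups overlapped, and the log2 difference was -0.22 ± 0.0828 (SE, limma adjusted p = 0.235). Controls 3 and 4 (f/f) were above Controls 1 and 2 (f/+). Over the alternatives other than leaving out 1 library, that difference was -0.34 to -0.19. The Prkcz cKO libraries were all below those of Prkci cKO, by a log2 difference of 0.20 with an adjusted p of 0.273.

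Slco1a4 (chr6:141805440-141856199, minus strand) and Slco1c1 (chr6:141524368-141570177, plus strand) encode organic anion carriers; Slco1c1 is the thyroxine carrier of brain capillaries and is also made by astrocytes. Slco1a4 was 41.3, 50.7, 46.7 and 42.7 in Controls 1 to 4, 46.0, 45.8, 50.5 and 43.7 in Prkci cKO 1 to 4, and 39.0, 35.7 and 40.0 in Prkcz cKO 1 to 3. Prkcz cKO was below every control, at -0.24 ± 0.0750 on the log2 scale (SE; adjusted p from limma 0.169), the largest of the set in that comparison. Its reads may be split with related Slco1a genes, so its level is uncertain to that extent. Slco1c1 was 60.3, 76.5, 71.7 and 74.5 in Controls 1 to 4, 69.0, 68.8, 66.8 and 72.0 in Prkci cKO 1 to 4, and 60.4, 62.3 and 58.6 in Prkcz cKO 1 to 3. Control 1 sat among the Prkcz cKO libraries and the other 3 controls well above them. The log2 difference of Prkcz cKO was -0.22 ± 0.0707 (SE, limma adjusted p = 0.176), and leaving out 1 library gave -0.30 to -0.18, with an adjusted p of 0.0451 without Control 1 and of up to 0.464, without Prkcz cKO 3.

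Slc7a5 (chr8:121881150-121907694, minus strand) encodes LAT1, the carrier of large neutral amino acids. It was 63.6, 59.8, 58.4 and 64.6 in Controls 1 to 4, 72.5, 72.8, 65.0 and 59.4 in Prkci cKO 1 to 4, and 57.0, 59.6 and 62.5 in Prkcz cKO 1 to 3. Prkci cKO 1 and 2 were highest and Prkci cKO 4 fell inside the controls, while the Prkcz cKO libraries overlapped them. The log2 difference was 0.13 for Prkci cKO (limma adjusted p = 0.490) and -0.04 for Prkcz cKO (adjusted p = 0.797). Slc3a2, the heavy chain that LAT1 needs at the membrane, had a log2 difference of 0.14 in Prkci cKO (adjusted p = 0.170) and 0.04 in Prkcz cKO (adjusted p = 0.745).

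The 10 genes did not all vary as a block. Over the 11 libraries, 43 of the 45 pairs correlated positively, with a median Pearson r of 0.40 and a range of -0.16 (Tjp1 with Abcg2) to 0.85 (Cldn5 with Abcb1a). Cldn5 with Slco1a4 stood at 0.81 and Abcb1a with Slco1a4 at 0.82. After the group means were taken out, 28 of the 45 pairs were positive, with a median of 0.11, so the correlations were weaker within the groups; each pair shares its libraries and their depth. Of 11140 other genes, those with the closest pattern over the 11 libraries were Sox18 for Cldn5 (r = 0.90), Tie1 and Klf4 for Abcb1a (each r = 0.90), Klf4 and Tie1 for Slco1a4 (r = 0.88 and 0.87) and Ptrf and Tie1 for Slc2a1 (r = 0.93 and 0.91). Sox18 and Klf4 are transcription factors found in endothelium, Tie1 is an endothelial receptor, and Ptrf is a coat protein of caveolae. Next came Anapc10 (r = 0.87) and Lzts1 (0.86) for Cldn5, and Myl9 (0.87), a smooth muscle gene, for Abcb1a. With the group means taken out, r was 0.65 for Cldn5 with Sox18, 0.53 for Abcb1a with Tie1 and 0.61 for Slco1a4 with Tie1. It was 0.82 for Slc2a1 with Ptrf. Each gene was picked as the highest of 11140 over 11 libraries, so a high r is partly a result of that choice. For Tjp1 the closest were Cad and Med1 (each r = 0.97) and Tmem131 (r = 0.96), which are widely expressed. The closest for Ocln was Mbip (r = 0.88), for Mfsd2a Slc41a1 (r = 0.90), for Abcg2 Ppm1m and Letm1 (each r = 0.87), for Slco1c1 Zfp36l1 (r = 0.93) and for Slc7a5 Pdgfb (r = 0.89).

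For genes that mark endothelium in general, the list medians lay on the same side of 0 as those of the barrier genes and further from it. Of 22 pan-endothelial genes, 3 fell in Prkcz cKO against Control (Flt1 by 0.50, Kdr by 0.60 and Gpr116 by 0.40 on the log2 scale, limma adjusted p = 0.00964, 0.0379 and 0.0454), 0 passed in Prkci cKO, and 10 were above Prkcz cKO in Prkci cKO, among them the VEGF receptors Kdr (log2 0.92, adjusted p = 0.0084) and Flt1 (0.68, adjusted p = 0.0014). Over all genes, 0.649% passed in Prkcz cKO, 1.61% in Prkci cKO and 0.300% between the knockouts. At an unadjusted p under 0.05 in limma 8 of the 22 were higher in Prkci cKO than in Control (36.4%, beside 12.1% of all genes in either direction). The median log2 difference of the list was 0.15, -0.33 and 0.41 in the 3 comparisons, beside 0.04, -0.22 and 0.21 for the barrier genes. The mean log2 level of the 22 genes was 4.07 to 4.22 in Control, 4.23 to 4.36 in Prkci cKO and 3.81 to 3.84 in Prkcz cKO. The 3 groups did not overlap in this summary. In bulk tissue, fewer endothelial cells and less RNA per endothelial cell cannot be told apart.

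The barrier genes were also set against that endothelial mean in the same library, as a log2 difference between a gene and the mean. Because the mean itself was 4.14 ± 0.062 in Control (SD, n = 4) and 3.82 ± 0.015 in Prkcz cKO (SD, n = 3), a gene with no change of its own comes out higher in Prkcz cKO on this scale: of all 14330 genes tested, 95.3% did, with a median of 0.31. The 10 barrier genes ran from 0.08 (Slco1a4) to 0.34 (Abcg2) above Control in Prkcz cKO. Those with libraries that did not overlap were 4 of the 10, beside 59.7% of all genes in that direction: Abcg2, Ocln (0.31), Slc7a5 (0.28) and Cldn5 (0.18). In Prkci cKO the mean was 4.28 ± 0.054 (SD, n = 4). There, with values rounded to 2 decimals, 8 of the 10 were below Control, Abcb1a was at -0.00 and Cldn5 at 0.05. Of all genes, 89.6% were below Control, without rounding. The lowest values of the 10 were those of Slco1c1 (-0.17), Mfsd2a (-0.16) and Slc2a1 (-0.14). Slc2a1 was the 1 barrier gene there whose libraries did not overlap, beside 23.3% of all genes that were lower without overlap. These relative values are descriptions with no test.

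**Figure D3:**
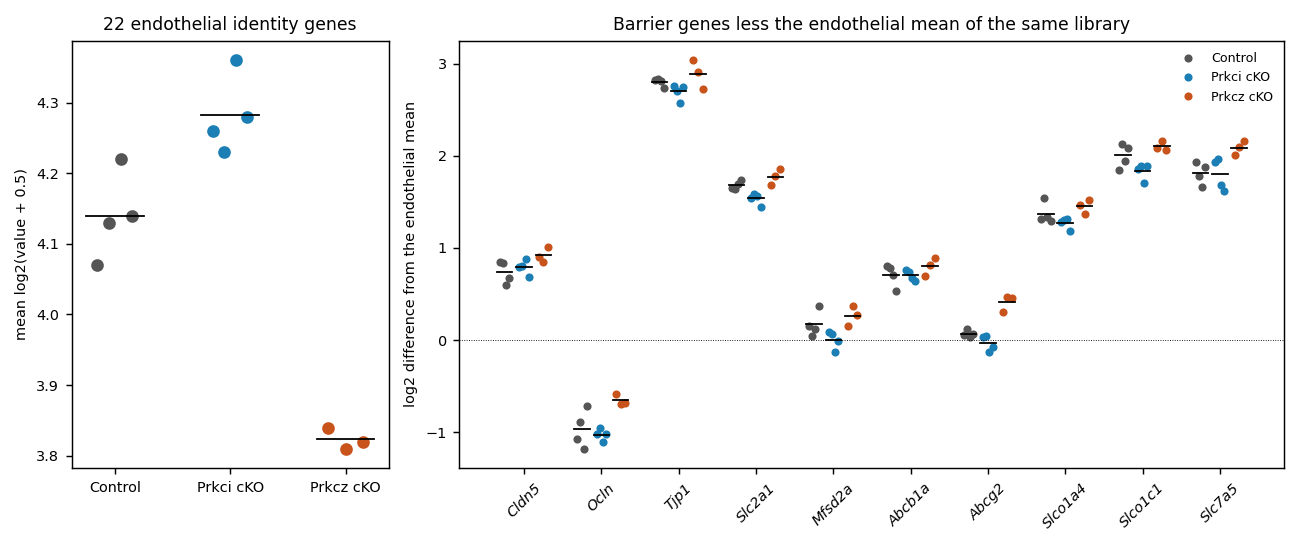
Left, mean log2(value + 0.5) of 22 pan-endothelial genes in each library; right, each barrier gene less that mean in the same library (log2), with lines at group means, for Control (grey, n = 4), Prkci cKO (blue, n = 4) and Prkcz cKO (orange, n = 3). On the left the groups do not overlap; on the right Abcg2, Ocln, Slc7a5 and Cldn5 of Prkcz cKO lie above every Control library, as 59.7% of all genes do on this scale.

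Other genes of the barrier were taken from lists by function, and Cdh5 and Esam stand among both junction and pan-endothelial genes. Of 22 other junction genes tested, 1 fell in Prkci cKO, Jam3, a junctional adhesion molecule (log2 -0.44 ± 0.0883, SE, limma adjusted p = 0.0191). In Prkcz cKO 1 fell, Ctnnd1, which encodes p120-catenin and stabilises cadherins (log2 -0.25 ± 0.0526, SE, limma adjusted p = 0.0485). Of all genes, 1.61% and 0.649% passed. Jam3 was at -0.25 in Prkcz cKO (limma adjusted p = 0.237). In Prkci cKO the median was -0.80 for 12 oligodendrocyte genes and 0.15 for the pan-endothelial genes. Which cells the Jam3 reads came from was not tested. Between the knockouts 0 of the 22 passed, with 6 at an unadjusted limma p under 0.05 (27.3%, beside 16.0% of all genes). Junction genes of Prkcz cKO with small p that did not pass were Lsr (angulin-1, at tricellular contacts; log2 -0.47, limma adjusted p = 0.129) and Esam (-0.28, adjusted p = 0.138). The median of this list was 0.01 in Prkci cKO and -0.12 in Prkcz cKO.

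Of 27 other transporters and receptors, 0 passed in limma in any of the 3 comparisons, with 5 at an unadjusted p under 0.05 for Prkci cKO, 10 for Prkcz cKO and 15 between the knockouts. Slco2b1, another organic anion carrier, had a log2 difference of -0.31 in Prkcz cKO (adjusted p = 0.0759), and Slc38a5, a glutamine carrier, had -0.48 (adjusted p = 0.148). The manganese and zinc carrier Slc39a8 had a log2 difference of 0.50 between the knockouts, with Prkci cKO above (adjusted p = 0.0809).

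Canonical Wnt signalling induces and keeps the barrier, and 21 genes of that signal and of its transcription factors were tested. None passed against Control in limma, with 4 at an unadjusted p under 0.05 in Prkci cKO and 9 in Prkcz cKO. Between the knockouts, 2 were higher in Prkci cKO: Apcdd1, an inhibitor that Wnt itself induces (24.96 in Prkcz cKO and 34.4 in Prkci cKO, means; log2 0.45, limma adjusted p = 0.0139), and Gpr124, the co-receptor for Wnt7 on brain endothelium (10.91 and 15.1; log2 0.45, adjusted p = 0.0351). Of all genes 0.300% passed in that comparison, and the 21 values in it ran from 0.02 to 0.59 with a median of 0.24. The ligands Wnt7a and Wnt7b, made by neural cells, had values of 0.07 and 0.02 there (adjusted p = 0.721 and 0.878), and the Wnt target Axin2 had 0.10 (adjusted p = 0.434).

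Genes of caveolae, fenestrae and permeability showed no call in any of the 3 comparisons: 0 of 9 passed in limma, with 1, 4 and 4 at an unadjusted p under 0.05. Plvap, the diaphragm protein of fenestrae that mature brain capillaries keep low, was 4.75 in Control, 5.40 in Prkci cKO and 6.18 in Prkcz cKO (means). Its log2 difference of 0.35 in Prkcz cKO ran against the direction of most endothelial genes (limma adjusted p = 0.135). All 10 choroid plexus genes tested were also above 0 in Prkcz cKO (median 0.63) and Prkci cKO (median 0.33), with 0 at an unadjusted limma p under 0.05. Whether choroid plexus in the punches added to Plvap was not tested. The caveolar genes Ptrf and Cav1 were at -0.30 and -0.23 in Prkcz cKO (adjusted p = 0.138 and 0.305), and Angpt2, a ligand that loosens vessels, was at 0.50 in Prkci cKO (adjusted p = 0.205).

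**Figure D4:**
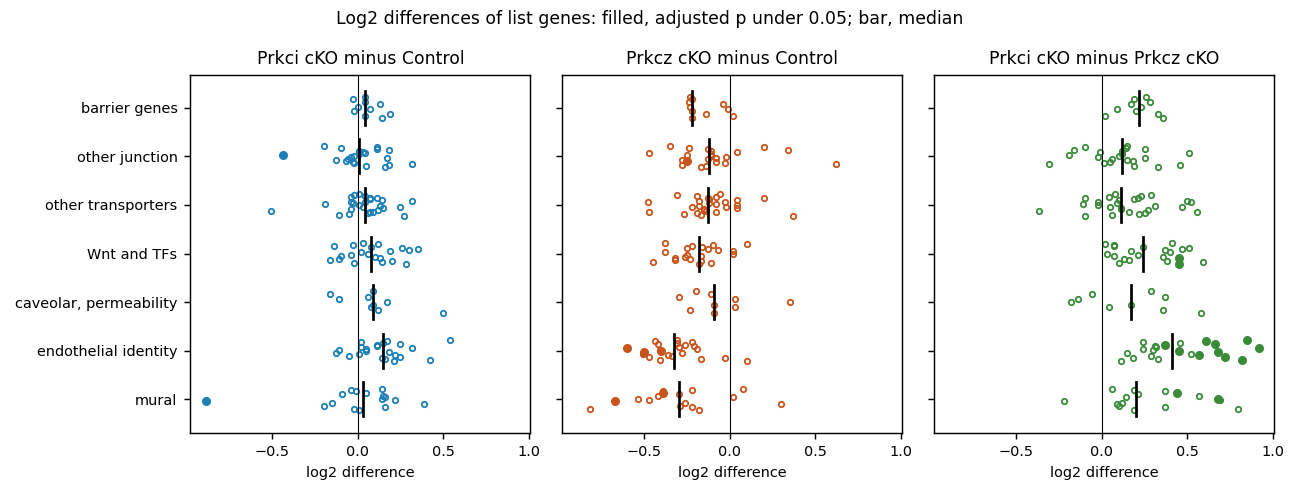
Log2 differences (horizontal axes) of the genes of each list in the 3 comparisons; filled points have a limma adjusted p under 0.05 and black bars are list medians. Barrier genes hold no filled point, while endothelial identity genes hold 3 in Prkcz cKO minus Control and 10 in Prkci cKO minus Prkcz cKO.

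Lists of other genes differed between the groups to unequal degrees. Of 8 neuron and 8 microglia genes tested, 0 passed in limma in any of the 3 comparisons. The summed level of 18 pericyte and smooth muscle genes was 224 to 255.8 in Control, 223.9 to 259.3 in Prkci cKO and 188.4 to 209 in Prkcz cKO. Of 16 tested, Mcam fell in both knockouts (log2 -0.89 and -0.67, limma adjusted p = 0.00226 and 0.0353) and Rgs5 in Prkcz cKO (-0.39, adjusted p = 0.0197). The 16 had a median log2 difference of 0.03 in Prkci cKO, with 9 above 0. In Prkcz cKO the median was -0.30, with 3 above 0. The sum of 12 astrocyte genes was 6085 to 6685 in Control, 6104 to 6901 in Prkci cKO and 4682 to 5886 in Prkcz cKO, lowest in Prkcz cKO 3, and Aqp4, which encodes a water channel, fell in Prkcz cKO (log2 -0.46, limma adjusted p = 0.0353). Sums of 12 oligodendrocyte genes were 5326 to 7969 in Control against 2831 to 4515 and 3805 to 4149 in the knockouts, and those of 8 immediate early genes were 523 to 1111 against 398.4 to 473.9 and 285.5 to 455.7. Sums of 8 striatal genes were 552.9 to 905.3 in Control, 259 to 507.1 in Prkci cKO and 539.1 to 1253 in Prkcz cKO, and those of 10 choroid plexus genes reached from 99.2 in Control 1 to 1026 in Prkcz cKO 2. None of the genes in these lists was at 0 in any library. Their part in the values of the barrier genes was not tested.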

How the data were processed

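RNA-seq of 11 cortex punches was available as 1 table of 16228 genes. Per the submitters' processing notes, FastQC, Trim Galore, STAR, RSEM and edgeR were used on GRCm38; the sources used here give no versions, annotation or scaling. What the authors deposited is a normalised signal per gene, scaled for library size, and its columns sum to between 1021767 and 1082562. Depth was estimated from the steps between low values; 85.9% to 89.2% of values under 0.5 lay within 0.005 of whole steps, so whole reads were not recovered and no count test was run. Depths and read numbers are thus approximate, and intervals from them cover counting error only.

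The filter kept the 14330 genes that reached a value of 1 in 3 or more libraries. log2(value + 0.5), a scale that understates changes of low genes, was fitted with limma 3.58.1 in R 4.3.3 (eBayes with trend, all 11 libraries, a term per group, 8 residual degrees of freedom). P-values were two-sided and Benjamini-Hochberg adjusted over all genes tested, with a threshold of 0.05; adjusted p in the text are from this fit. The groups' replicates are biological per the series design. Scripts were tested on simulated data.

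The 10 genes and all lists were chosen with earlier results of these data known. Named were these genes, Prkci and Prkcz, list genes past the threshold or with the smallest p (at most 4 per list and comparison), and the 3 genes closest in pattern to each; some of these are not reported here. Positions and lengths are from GENCODE M21 on GRCm38; promoters are from RefSeq on GRCm38.p6. Alternatives tried were pseudocounts, filters, scalings, variance models, control subsets, leaving out each library in turn, and a replicate block.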

Additional observations from a re-analysis of the deposited data

How the results depend on the processing

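No barrier gene was called in the reported fits; 24 alternatives were run for each of 30 gene results, and of the 720 values 689 kept direction and side of the threshold, 9 passed it and 22 changed sign without being called. Barrier genes called in Prkci cKO against Prkcz cKO were 2 with array weights (Cldn5 and Abcb1a) and 1 (Abcb1a) with the filter at a value of 5, with only the 2 groups fitted, with the control genotypes as separate terms and with the replicate block; leaving out 1 library gave 0 to 1 there and in Prkcz cKO against Control. Sign changed for Slc2a1 in Prkci cKO against Control with array weights (-0.029) and f/f controls only (-0.073), for Ocln in Prkcz cKO against Control at equal sums without Rn45s (0.010), quantile normalisation (0.013) and the replicate block (0.029), and for Abcg2 between the knockouts at equal sums (-0.0065). With 1 library left out, values that changed sign ran from -0.033 to 0.031 for Slc2a1 (Prkci cKO against Control), -0.0045 to 0.093 for Slco1a4 (Prkci cKO against Control), -0.10 to 0.012 for Slco1c1 (Prkci cKO against Control), -0.067 to 0.045 for Mfsd2a (Prkci cKO against Control), -0.0052 to 0.067 for Abcg2 (Prkcz cKO against Control), -0.071 to 0.069 for Ocln (Prkcz cKO against Control) and -0.031 to 0.039 for Abcg2 (Prkci cKO against Prkcz cKO).

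The count of all genes called in Prkci cKO against Control (230) was 346 with array weights, 132 with f/f controls only and 95 to 349 when 1 library was left out, with the lowest count without Prkci cKO 2 and over 1.5 times away also without Prkci cKO 1 (148) and Prkcz cKO 3 (349). In Prkcz cKO against Control (93) it was 29 with only the 2 groups fitted, 30 without a variance trend, 59 with f/f controls only, 211 with the control genotypes as separate terms and 13 to 111 when 1 library was left out: 27 without Control 1, 50 without Control 2, 52 without Prkci cKO 1, 48 without Prkci cKO 2 and 13 without Prkcz cKO 2 or 3. Between the knockouts (43) it was 112 with array weights, 65 with f/f controls only, 77 with separate control terms and 10 to 152 when 1 library was left out: 10 without Prkci cKO 1, 14 without Prkci cKO 2, 19 without Prkci cKO 4, 152 without Prkcz cKO 1 and 16 without Prkcz cKO 3. The cause of these shifts was not tested, beyond the fewer samples that some settings hold.

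Deviations from the group means of same-numbered libraries had correlations of -0.186 to 0.196 in 10 pairs, of which 5 were over 0.1. Whether replicate numbers pair the samples cannot be told from these values. With the replicate block the count of all genes called was 263, 69 and 73 in the 3 comparisons, and Abcb1a between the knockouts had a log2 difference of 0.40 (limma adjusted p = 0.0322). Depth limits Ocln most, with about 122 reads in its lowest library.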

Other observations

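Thyroid hormone handling was described because Slco1c1 carries thyroxine. Of 9 genes of carriers, deiodinases and hormone-responsive targets, 0 passed in limma in any of the 3 comparisons, with 3, 2 and 2 at an unadjusted p under 0.05. Dio2, the enzyme that activates thyroxine in astrocytes and tanycytes, was 113.7 in Control, 111.5 in Prkci cKO and 79.9 in Prkcz cKO (means), with a log2 difference of -0.52 in Prkcz cKO (limma adjusted p = 0.0697). The responsive gene Hr was at -0.25 in Prkcz cKO (adjusted p = 0.208) and -0.20 in Prkci cKO (adjusted p = 0.323), and Klf9 at -0.07 and -0.10 (adjusted p = 0.603 and 0.480).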
